A study of Mus musculus with 34 samples.

Results

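Spi1, Cebpa, Cebpb, Cebpd, Irf8, Runx1 and Maf encode transcription factors that set up and maintain the macrophage lineage. These 7 genes were taken as a group, and every ChIP-seq peak of 30 lists whose midpoint lay in the gene body or within 20 kb of it was assigned to the gene (GENCODE, mm10). This gave 1033 of 596383 peaks. Peaks sharing 1 bp or more were merged into loci, 144 of 93024 in all. The lists come from thioglycollate elicited macrophages (TGEMs), cells recruited to the mouse peritoneum by an irritant, taken from male mice and plated before treatment. The labels give 3 days of growth in medium, whereas the study's methods place that interval between injection and collection. Wild-type cells labelled C57Bl/6EiJ (C57BL/6 below) were treated with vehicle (Veh, PBS) or with Kdo2 lipid A (KLA), a TLR4 agonist, for 1 h, and each treatment was profiled for the AP-1 monomers ATF3, Jun, JunD, Fos, FosL2 (labelled Fra2) and JunB and for PU.1 and CEBPα. PPARγ was profiled in Veh alone. Wild-type cells labelled Balb/cJ (BALB/cJ below) were profiled in both treatments for ATF3, Jun, JunD, Fos and JunB. TGEMs labelled PPARgKO (PPARγ KO below), on C57Bl6 by the labels, were profiled in Veh for ATF3, Jun and JunD, and how PPARγ was deleted is not given in the sources used here. The 34 samples include 4 inputs, for which no peaks were analysed here. Each condition has 1 list in which the authors had already combined replicate experiments, so differences between lists have no replicate check and no test between groups was possible.

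PU.1, the product of Spi1, is the ETS factor that opens chromatin in myeloid cells, and it works with C/EBP factors (Cebpa, Cebpb and Cebpd), IRF8 and RUNX1 at macrophage enhancers. Such genes are often bound by their own products and by each other's. Maf encodes a bZIP factor of differentiated macrophages. AP-1 is a dimer of bZIP monomers that recognizes the TRE (TGACTCA) and the CRE (TGACGTCA), and PPARγ is a nuclear receptor active in lipid-handling macrophages.

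Peaks are given by their count and by their rank within the list. A rank is also written as a percent of the list, so that a small percent marks a strong peak. Counts are not scaled to library size, and counts of different lists were not compared. A percent also depends on the length of the list, since a longer list lowers it at the same rank. A percent can thus differ between treatments, strains or genotypes where the rank does not. The Jun Veh list of PPARγ KO holds 4290 peaks, against 15548 in wild-type C57BL/6. The lists hold 463 to 41573 peaks and sum to 9196 to 13809143 counts, except that the Fos Veh list of BALB/cJ is empty and the JunB Veh list of BALB/cJ holds 9 peaks, none of them at these genes. In the other 28 lists the 7 genes held between 1.4 and 4.32 of every 1000 peaks, with a median of 1.75. Peak lists carry no RNA, so the macrophage identity of the cells could not be checked against marker genes.

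The sequences that follow show the loci on which the results turn. For each gene the locus with peaks in the most lists is shown as the 200 bases around its centre. At Irf8 the +27.1 kb and +4.9 kb loci tied at 22 lists, and the locus with the better median rank is shown. The windows at the strongest PU.1 peak and at the strongest PPARγ peak in Veh over the 7 genes were added after the values were seen. Letters are GRCm38 (mm10), plus strand, 5′ to 3′, of the reference strain, and capitals mark matches on either strand to the TRE, the CRE, a PU.1 core (ACTTCCT), a C/EBP site (TTGCNNAA), an ATF:C/EBP composite (TGATGCAA), a Runx core (TGTGGTT), the core of a nuclear receptor direct repeat (GGNCANAGG) or a κB site (GGGNNTTCC). At Cebpd the locus lies in an annotated UTR, and the PU.1 core nearest its centre is given with 10 bases on each side.
Spi1 -13.0 kb: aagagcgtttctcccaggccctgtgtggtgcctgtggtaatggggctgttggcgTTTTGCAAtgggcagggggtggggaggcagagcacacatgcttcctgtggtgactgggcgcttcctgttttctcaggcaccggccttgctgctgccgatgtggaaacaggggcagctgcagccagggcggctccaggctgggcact
Spi1 -25.4 kb: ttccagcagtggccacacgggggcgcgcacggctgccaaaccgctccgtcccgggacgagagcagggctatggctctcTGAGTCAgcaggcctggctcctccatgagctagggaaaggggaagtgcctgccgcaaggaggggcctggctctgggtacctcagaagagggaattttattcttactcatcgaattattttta
Cebpa +8.0 kb: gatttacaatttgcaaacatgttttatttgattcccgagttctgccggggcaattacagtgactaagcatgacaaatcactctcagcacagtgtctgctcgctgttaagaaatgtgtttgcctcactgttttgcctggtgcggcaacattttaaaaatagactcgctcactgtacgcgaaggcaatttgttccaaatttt
Cebpb -1.1 kb: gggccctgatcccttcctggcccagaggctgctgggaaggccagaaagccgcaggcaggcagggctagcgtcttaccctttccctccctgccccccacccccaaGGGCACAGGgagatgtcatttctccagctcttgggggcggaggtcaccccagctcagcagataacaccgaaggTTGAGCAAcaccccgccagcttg
Cebpd +2.9 kb: tatgtctcccACTTCCTttggggacac
Irf8 +27.1 kb: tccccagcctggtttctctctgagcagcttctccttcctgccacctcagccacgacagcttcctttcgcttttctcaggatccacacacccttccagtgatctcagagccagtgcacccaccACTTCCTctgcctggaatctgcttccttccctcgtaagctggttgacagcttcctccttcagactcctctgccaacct
Runx1 +205.2 kb: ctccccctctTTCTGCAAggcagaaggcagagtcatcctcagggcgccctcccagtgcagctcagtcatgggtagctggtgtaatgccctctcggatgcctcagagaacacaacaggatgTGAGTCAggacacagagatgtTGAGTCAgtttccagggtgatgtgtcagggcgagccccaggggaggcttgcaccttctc
Runx1 +150.3 kb: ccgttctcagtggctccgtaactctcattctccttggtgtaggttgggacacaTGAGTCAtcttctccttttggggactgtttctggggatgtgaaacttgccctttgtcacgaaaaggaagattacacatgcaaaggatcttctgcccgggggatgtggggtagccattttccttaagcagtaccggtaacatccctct
Maf +18.5 kb: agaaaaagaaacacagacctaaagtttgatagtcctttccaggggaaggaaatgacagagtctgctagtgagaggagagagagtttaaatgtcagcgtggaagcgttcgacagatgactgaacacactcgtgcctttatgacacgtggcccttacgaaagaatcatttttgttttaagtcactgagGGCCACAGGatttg

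Loci are named by their distance from the main start site of the gene, with a minus for upstream. The windows are chr2:91082982-91083181 and chr2:91070584-91070783 for Spi1, chr7:35127221-35127420 for Cebpa, chr2:167687698-167687897 for Cebpb and chr16:15890112-15890138 for Cebpd. They are chr8:120763350-120763549 for Irf8, chr16:92620812-92621011 and chr16:92675794-92675993 for Runx1 and chr8:115689188-115689387 for Maf. The Runx1 +205.2 kb window holds 2 TREs, centred 23 and 44 bases from the middle of the locus. The Cebpa window, bound by 5 AP-1 monomers, CEBPα and PPARγ, held none of the 8 motifs, which says only that these letters are not in these 200 bases.

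The windows of the 7 genes differed widely in how much binding they carried. Runx1, which spans 224684 bp, had 58 loci, and Spi1 had 31, Irf8 16, Cebpb 15, Cebpa 10, Maf 8 and Cebpd 6. Per 10 kb of window the order was Spi1 with 4.23 loci, Cebpb with 3.61, Irf8 with 2.65, Cebpa with 2.35, Runx1 with 2.19, Cebpd with 1.37 and Maf with 1.23. The median over 21951 protein-coding genes was 4 loci per window and 0.516 per 10 kb. By density, 99.5% of these genes lay below Spi1, 99.0% below Cebpb and 76.8% below Maf. Some windows also hold other protein-coding genes. These are Psmc3, Slc39a13 and Mybpc3 for Spi1, Tmem189 for Cebpb, Spidr for Cebpd and Gm20388 for Irf8. The numbers of loci therefore describe the windows and cannot be assigned to the named gene alone. In the 28 lists of at least 100 peaks, Spi1 and Runx1 had a peak in 28, Irf8 in 27, Cebpb in 26, Cebpa in 24, Cebpd in 16 and Maf in 15. Of all 21951 genes, the share with a peak in a list ran from 2.35% (JunB Veh of C57BL/6) to 65.8% (PU.1 Veh).

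The strongest peak of each gene ranked highest at Runx1, where its median over lists was the top 1.0% of the list. The median was 8.96% at Spi1, 11.3% at Irf8, 22.6% at Cebpa, 35.7% at Cebpb, 45.3% at Cebpd and 72.2% at Maf, over the lists with a peak. The strongest peak was in the top 10% of its list in 25 lists at Runx1, 17 at Spi1, 11 at Irf8, 2 at Cebpa, 1 at Cebpb, 2 at Cebpd and 0 at Maf. The Runx1 window of 265 kb holds more peaks from which to take the strongest than the 41.5 kb window of Cebpb, so these ranks are not on equal terms between genes.

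**Figure D1:**
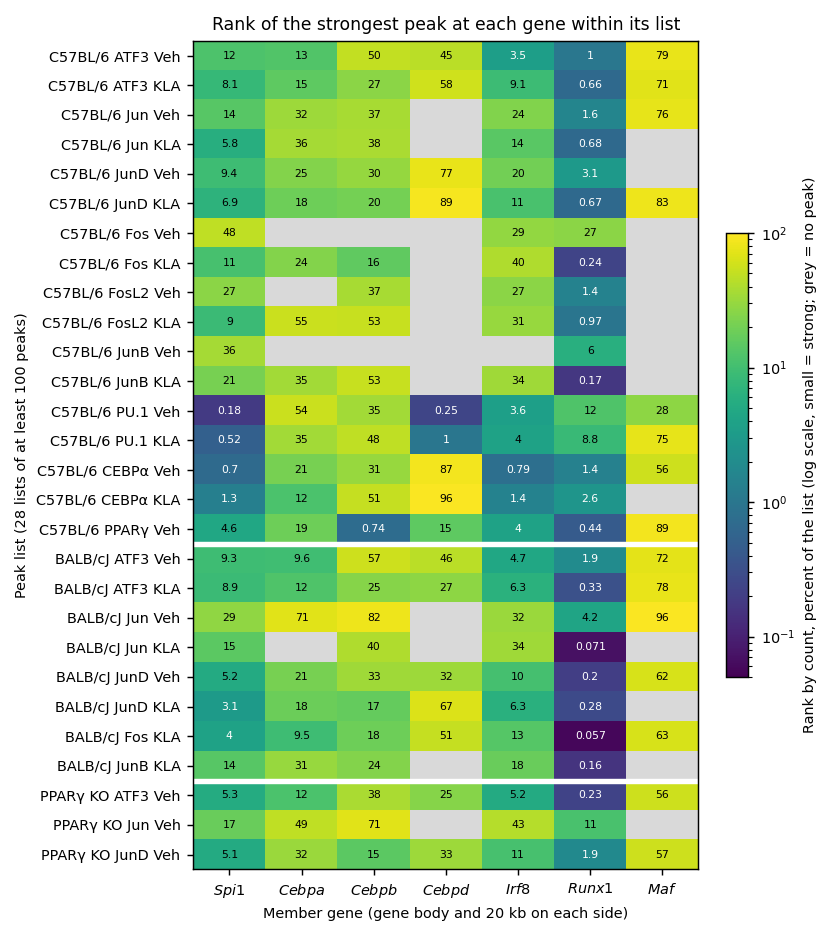
Rank by count of the strongest peak at each gene, as a percent of its list (colour on a log scale, rows are the 28 lists of at least 100 peaks, columns the 7 genes, grey where no peak was called). Runx1 is at the top 11.2% or stronger in every list but Fos Veh of C57BL/6, at 26.7%, and PU.1 Veh, at 12.5%, and Maf is at the top 27.7% at its strongest.

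Spi1 (ENSMUSG00000002111.8, chr2:91082390-91115756, plus strand) had 4 loci with peaks in more than 20 lists. The -13.0 kb locus, in an intron of a longer Spi1 transcript, was bound in 26 lists by all 6 AP-1 monomers, PU.1, CEBPα and PPARγ. There CEBPα had a count of 286 in Veh (rank 90 of 12892, top 0.698%) and 256 in KLA (rank 196 of 14802, top 1.32%). At the same place PU.1 was in the top 5.44% in Veh and 3.56% in KLA, and PPARγ in the top 4.64%. The AP-1 peaks at this locus ranged from the top 5.14% for JunD in PPARγ KO to 87.9% for Jun in PPARγ KO.

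At -25.4 kb PU.1 reached its strongest rank over the 7 genes, with a count of 1219 in Veh (rank 75 of 41573, top 0.18%) and 316 in KLA (rank 211 of 40645, top 0.519%). This locus lies 286 bp from the start of Slc39a13, a zinc transporter gene, and so is nearer to that gene than to Spi1. It had peaks in 24 lists, with JunD in the top 9.41% in Veh and 6.9% in KLA of C57BL/6 and PPARγ in the top 10.9%, and CEBPα had no peak there. Its window has a TRE but no exact PU.1 core. PU.1 thus ranked higher here than at the start of the gene that encodes it.

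The locus at +0.6 kb, at the 5′ end of the main Spi1 transcript, was bound in 24 lists. ATF3 ranked highest of the AP-1 monomers there in C57BL/6, in the top 11.9% in Veh and 8.11% in KLA, and in PPARγ KO, in the top 5.31%. In BALB/cJ ATF3 was in the top 9.3% and 8.94%, and JunD in 8.44% and 9.52%. PU.1 was in the top 55.9% in Veh and 26.5% in KLA at this place, and another PU.1 locus at +0.0 kb was in the top 74.4% and 46.9%. The intronic -9.6 kb locus, bound in 23 lists, ranked higher in KLA for JunD and PU.1. JunD there went from rank 6791 (top 34.6%) to 2730 (8.63%) in C57BL/6 and from 7945 (27.7%) to 1049 (3.1%) in BALB/cJ. Jun had no Veh peak there in C57BL/6 and a KLA peak in the top 5.85%, and PU.1 went from rank 11905 (top 28.6%) to 3222 (7.93%).

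CEBPα also had a peak at +2.3 kb in an intron of Spi1, in the top 1.61% in Veh and 6.23% in KLA, where PU.1 was in the top 86.5% in KLA and had no Veh peak. Of the 31 Spi1 loci, 19 held a PU.1 peak, 7 a CEBPα peak and 17 a PPARγ peak (61.3%, 22.6% and 54.8%), beside 54.5%, 19.9% and 33.4% of all loci.

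**Figure D2:**
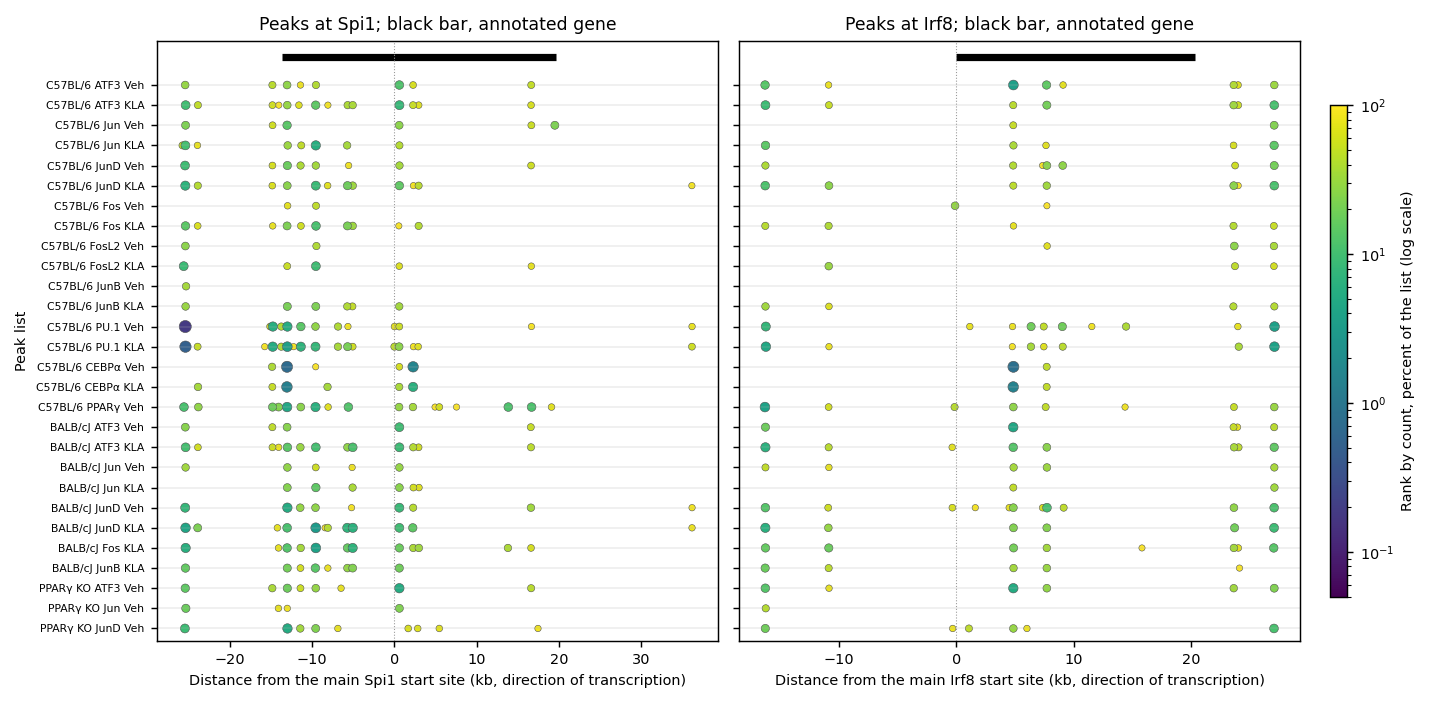
Peaks at Spi1 and Irf8 by distance from the main start site (x, kb, transcription to the right) in each of the 28 lists (y); colour and size give the rank within the list (log scale, dark and large is strong) and the black bar is the annotated gene. The darkest points are PU.1 at -25.4 kb of Spi1, at the top 0.18% and 0.519%, and CEBPα at -13.0 kb of Spi1 and +4.9 kb of Irf8.

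Cebpa (ENSMUSG00000034957.10, chr7:35119293-35121928, plus strand) had its most shared locus at +8.0 kb, in intergenic sequence, with peaks in 20 lists. ATF3 led there, in the top 12.7% in Veh and 15.1% in KLA of C57BL/6, 9.62% and 12.5% in BALB/cJ and 11.7% in PPARγ KO. CEBPα, the product of this gene, was in the top 46.9% in Veh and 29.3% in KLA. At the promoter, -0.2 kb, CEBPα had a count of 125 in Veh (top 21.1%) and 66 in KLA (top 52.0%), and PPARγ was in the top 18.7%. PU.1 was near the bottom of its Veh list there, at 95.2%, with no KLA peak.

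The peaks farther downstream came mostly from KLA lists. At +8.7 kb 12 lists had a peak, 10 of AP-1 in KLA, of which Fos in BALB/cJ was in the top 9.49% and Fos in C57BL/6 in the top 24.2%. At +13.9 kb, a locus singled out after its values were seen, CEBPα had a KLA peak in the top 11.6% and none in Veh, beside KLA peaks of ATF3, Jun, JunD and Fos in C57BL/6 in the top 18.5% to 36.0%.

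Cebpb (ENSMUSG00000056501.3, chr2:167688915-167690418, plus strand) encodes a C/EBP factor of the inflammatory response. Its -1.1 kb locus, in an intron of Tmem189, held a PPARγ peak with a count of 308 (rank 231 of 31089, top 0.743%). The AP-1 monomers and CEBPα had weaker peaks at that place, in 19 lists, from the top 30.4% for JunD and 30.6% for CEBPα in Veh of C57BL/6 to 85.5%. The window holds a direct repeat core 8 bases from its centre, and a C/EBP site. In PPARγ KO the ATF3 and JunD peaks of this locus, in the top 53.3% and 30.4% of the wild-type lists, were not called. The Jun peak was at rank 5689 of 15548 (36.6%) in wild type and 3408 of 4290 (79.4%) in the shorter knockout list.

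The +9.1 kb locus of Cebpb, in an intron of A530013C23Rik, was bound in 16 lists by all 6 monomers and by PPARγ (top 12.2%). Of the AP-1 lists it ranked highest in Fos KLA of C57BL/6, at 15.7%, and JunD KLA of BALB/cJ, at 16.7%, with no ATF3, Fos or Jun peak in Veh of C57BL/6. At -8.8 kb 14 lists had a peak, none stronger than the top 43.6%. At the promoter, loci at -0.6 kb and -0.1 kb had peaks in 9 and 5 lists, the strongest being JunD in PPARγ KO at -0.1 kb, in the top 14.9%. PU.1 was at 3 of 15 Cebpb loci (20.0%, beside 54.5% of all loci).

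Cebpd (ENSMUSG00000071637.5, chr16:15887286-15891031, plus strand), whose product is induced in acute inflammation, had a PU.1 peak at +2.9 kb, in a UTR of the gene by the annotation. Its count was 1191 in Veh (rank 103 of 41573, top 0.248%) and 288 in KLA (rank 405 of 40645, top 0.996%). No other factor had a strong peak at this locus, and the strongest AP-1 peak was ATF3 in PPARγ KO, at rank 7654 of 28318. The 200 bases around its centre hold 2 PU.1 cores, on opposite strands.

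At -8.8 kb ATF3 had peaks in 5 of 5 ATF3 lists, in the top 25.2% to 58.2%. The Cebpd promoter, at -0.1 kb, held PPARγ in the top 15.2% and PU.1 in the top 80.3% in Veh and 67.6% in KLA. Jun, FosL2 and JunB had no peak at Cebpd in any list, and Fos had peaks in KLA of BALB/cJ alone.

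Irf8 (ENSMUSG00000041515.10, chr8:120736358-120756694, plus strand) encodes an interferon regulatory factor that partners with PU.1. PU.1 peaks were at 11 of its 16 loci (68.8%, beside 54.5% of all loci). The +27.1 kb locus, downstream of the gene, was bound in 22 lists, with PU.1 at a count of 850 in Veh (rank 1499 of 41573, top 3.61%) and 217 in KLA (rank 1644 of 40645, top 4.04%). ATF3 was there at rank 7364 in Veh (top 31.8%) and 3999 in KLA (10.9%) of C57BL/6 and at 8916 (45.7%) and 5602 (15.2%) in BALB/cJ. JunD was at rank 3907 (19.9%) and 3578 (11.3%) in C57BL/6 and at 3233 (11.3%) and 3061 (9.04%) in BALB/cJ.

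At +4.9 kb, in a noncoding exon of an Irf8 transcript, CEBPα had a count of 282 in Veh (rank 102 of 12892, top 0.791%) and 251 in KLA (rank 213 of 14802, top 1.44%). ATF3 ranked lower in KLA than in Veh at this locus, at 818 (top 3.53%) in Veh and 16613 (top 45.2%) in KLA of C57BL/6 and at 912 (top 4.68%) and 4802 (top 13.0%) in BALB/cJ, and it was in the top 5.17% in PPARγ KO. PU.1 was weak, in the top 83.2% in Veh and 89.9% in KLA. The PPARγ list had its strongest Irf8 peak at -16.3 kb, with a count of 162 (top 3.95%), where PU.1 was in the top 7.68% in Veh and 4.77% in KLA and 20 lists had a peak. The promoter locus, at -0.3 kb, had peaks in 5 lists, none stronger than the top 29.4%.

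Runx1 (ENSMUSG00000022952.17, chr16:92601466-92826149, minus strand) held the strongest AP-1 peaks of the group. Its +205.2 kb locus, chr16:92620694-92621123 in an intron near the 3′ end, was bound in 27 lists. In Veh of C57BL/6 it was in the top 1.03% of ATF3, 1.58% of Jun, 3.73% of JunD, 1.44% of FosL2, 6.05% of JunB and 26.7% of Fos. In KLA of C57BL/6 it was in the top 0.664% of ATF3, 0.681% of Jun, 0.67% of JunD, 0.97% of FosL2, 0.172% of JunB and 0.238% of Fos. The rank itself was higher in KLA for Jun (245 in Veh, 119 in KLA), JunD (734 and 212), Fos (482 and 58) and JunB (28 and 23), and lower for ATF3 (238 and 244) and FosL2 (77 and 103). The KLA list was the longer one for all 6 monomers.

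In BALB/cJ ATF3 was at rank 380 in Veh (top 1.95%) and 123 in KLA (0.334%), Jun at 463 (4.23%) and 8 (0.0707%), and JunD at 58 (0.202%) and 94 (0.278%). In KLA of BALB/cJ, Fos had a count of 410 (rank 23 of 40459, top 0.0568%) and JunB 211 (rank 34 of 21667, top 0.157%). In PPARγ KO it was in the top 0.23% of ATF3, 1.85% of JunD and 11.2% of Jun, the last at rank 479 of 4290. Of the other factors at this locus, PPARγ was in the top 12.2%. CEBPα was at rank 5163 of 12892 in Veh and 4176 of 14802 in KLA. PU.1 was in the top 66.2% in KLA and had no peak in Veh. The window of the +205.2 kb locus holds the pair of TREs printed above.

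The +150.3 kb locus of Runx1, also intronic, was bound in 25 lists, and here PPARγ had its strongest rank over the 7 genes, with a count of 347 (rank 138 of 31089, top 0.444%). ATF3, JunD and Jun were in the top 4.44%, 3.08% and 7.06% in Veh of C57BL/6, and in 3.23%, 2.61% and 19.9% in PPARγ KO. BALB/cJ had Jun in Veh, in the top 4.23%, and no Jun peak in KLA. PU.1 went from the top 21.1% in Veh to 8.76% in KLA. The window printed around the PPARγ peak holds a TRE and no direct repeat core.

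CEBPα was strong elsewhere in Runx1, at +213.5 kb with a count of 261 in Veh (top 1.43%) and 222 in KLA (top 2.61%), and at +110.5 kb with 255 (top 1.67%) and 192 (top 4.76%). At +110.5 kb ATF3 was at rank 956 in Veh (top 4.13%) and 22116 in KLA (60.2%) of C57BL/6, at 1102 (5.65%) and 9124 (24.8%) in BALB/cJ and in the top 9.32% in PPARγ KO. At this locus, as at Irf8 +4.9 kb, ATF3 had a lower rank in the KLA list than in the Veh list of each strain. PU.1 was in the top 12.5% in Veh at +25.1 kb, which was the strongest PU.1 rank at Runx1 in that list.

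Runx1 has a distal and a proximal promoter. At the distal start, +0.1 kb, 22 lists had a peak, with Jun in Veh of C57BL/6 in the top 11.5% and PU.1 in 20.4% in Veh and 16.1% in KLA. Near the proximal start, +129.4 kb, 17 lists had a peak, of which 16 were AP-1 and the other was PU.1 in KLA, with JunD in KLA of BALB/cJ in the top 14.3%. A locus at -16.2 kb, singled out after its values were seen, had peaks in 6 lists, all in KLA. These were Fos, FosL2, JunB and JunD in C57BL/6, in the top 16.2% to 65.5%, and Fos and JunB in BALB/cJ, in the top 21.9% and 71.1%.

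**Figure D3:**
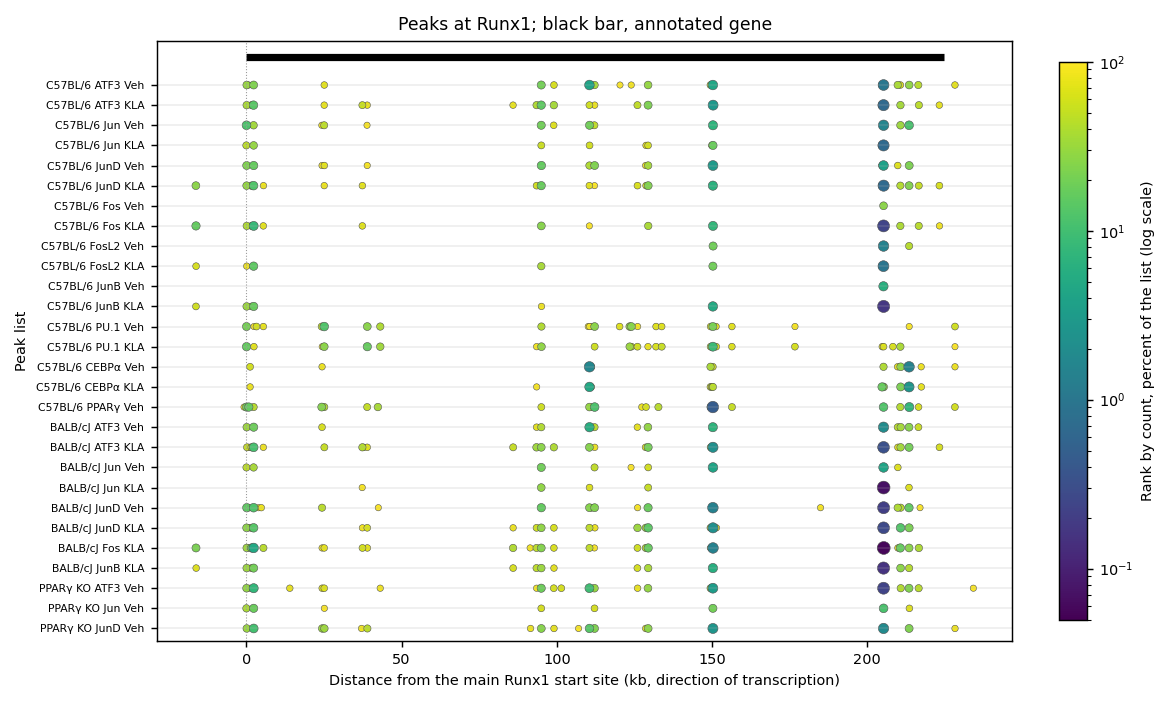
Peaks at Runx1 by distance from the distal start site (x, kb, transcription to the right) in each of the 28 lists (y), with rank within the list as colour and size (log scale, dark and large is strong) and the annotated gene as a black bar. The column of dark points at +205.2 kb reaches the top 0.0568% in Fos KLA of BALB/cJ, and the PPARγ point at +150.3 kb is at 0.444%.

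Maf (ENSMUSG00000055435.6, chr8:115682942-115707794, minus strand) had the fewest loci per 10 kb and peaks in the fewest lists of the 7 genes, although Cebpd had fewer loci. No locus had peaks in more than 8 lists, and the strongest peak in any list was PU.1 in Veh at +29.4 kb, with a count of 398 (top 27.7%), which was in the top 74.8% in KLA. The +18.5 kb locus was bound in 8 lists by ATF3, Jun and JunD, in the top 56.7% to 96.5%. The promoter, -0.1 kb, had ATF3 in KLA of C57BL/6 and in both treatments of BALB/cJ and JunD in Veh of BALB/cJ, in the top 67.7% to 85.5%. PPARγ had a peak at 1 Maf locus, in the top 88.6%. Fos had peaks in KLA of BALB/cJ, in the top 62.6% at -13.4 kb and 94.8% at -11.0 kb, and FosL2 and JunB had none.

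Over the 144 loci, factor composition was close to that of all loci for most sets. AP-1 was at 112 (77.8%, beside 75.5% of all loci), PU.1 at 74 (51.4% beside 54.5%), CEBPα at 32 (22.2% beside 19.9%) and PPARγ at 61 (42.4% beside 33.4%). AP-1, PU.1, CEBPα and PPARγ met at 18 loci (12.5% beside 7.79%), of which 9 were at Runx1, 6 at Spi1, 2 at Irf8 and 1 at Cebpa. Peaks in at least 20 lists were found at 14 loci (9.72% beside 6.89%) and peaks in 1 list at 42 (29.2% beside 27.3%). These shares carry no test.

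Whether KLA moved binding at these genes was asked by the overlap of Veh and KLA peaks of the same factor. In C57BL/6 the monomers that were scarce in Veh gained most. Fos had 2 peaks at Spi1 in Veh and 10 in KLA, 1 and 15 at Runx1, 2 and 5 at Irf8, 0 and 4 at Cebpa, and 0 and 3 at Cebpb. JunB had 1 and 6 at Spi1, 1 and 7 at Runx1, 0 and 4 at Irf8, and 0 and 2 at both Cebpa and Cebpb. Of the KLA peaks at the 7 genes, 34 of 37 were gained over Veh for Fos, beside 95.5% of the whole list, and 19 of 21 for JunB, beside 98.2%. For FosL2, 12 of 18 were gained, beside 75.3%.

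For the monomers present in both treatments, 20 of 56 ATF3 KLA peaks were gained (35.7%, 95% Wilson interval 24.5 to 48.8), beside 48.8% of the whole list. The interval has the peak as its unit and covers counting error only. Gains were 24 of 53 for JunD, beside 51.6%, and 16 of 29 for Jun, beside 48.6%. PU.1 gained 16 of 60, beside 24.7%, and CEBPα 7 of 25, beside 39.4%. In BALB/cJ the gains were 31 of 61 for ATF3, beside 57%, 7 of 17 for Jun, beside 51.6%, and 23 of 56 for JunD, beside 47.3%.

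Veh peaks were lost in 13 of 49 cases for ATF3 in C57BL/6, beside 18.9% of the whole list, in 16 of 29 for Jun, beside 42.2%, and in 8 of 36 for JunD, beside 22.2%. Losses were 2 of 5 for Fos, beside 39.4%, 4 of 10 for FosL2, beside 50.8%, and 0 of 2 for JunB, beside 47.1%. PU.1 lost 14 of 58, beside 26.4%, and CEBPα 7 of 25, beside 30.4%. In BALB/cJ, ATF3 lost 6 of 36, beside 18.9%, Jun 14 of 24, beside 50%, and JunD 20 of 53, beside 37.8%. Lost peaks ranked below kept peaks in the median in every list with a lost peak. In C57BL/6 the median rank of lost Veh peaks was the top 74.8% for ATF3, 65.8% for Jun and 74.2% for JunD, against 41.0%, 22.1% and 34.0% for kept peaks. Strong peaks were also lost, such as Jun of BALB/cJ at Runx1 +150.3 kb (top 4.23% in Veh) and Jun of C57BL/6 at Runx1 +213.5 kb (top 10.8%).

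By gene, the number of ATF3 peaks at Spi1 was 8 in Veh and 14 in KLA of C57BL/6, and 5 and 13 in BALB/cJ. For JunD at Spi1 it was 8 and 12, and 9 and 12. The KLA lists as a whole are also longer. ATF3 has 23160 peaks in Veh and 36745 in KLA of C57BL/6, and 19506 and 36821 in BALB/cJ. JunD has 19653 and 31640, and 28652 and 33850. At Runx1 ATF3 had 20 and 20 peaks in C57BL/6 and 15 and 25 in BALB/cJ. Jun had fewer peaks at Runx1 in KLA, with 14 and 10 in C57BL/6 and 9 and 7 in BALB/cJ. The neighbouring Spi1 loci at -5.7 kb and -5.1 kb show such gains. At -5.1 kb, which was singled out after its values were seen, Fos, JunB, ATF3 and JunD had KLA peaks in both strains, in the top 6.47% to 50.8%, and no Veh peak in C57BL/6, whereas BALB/cJ had weak Veh peaks of JunD (top 93.4%) and Jun (top 85.9%). At -5.7 kb PU.1 was at rank 36411 (top 87.6%) in Veh and 8517 (21.0%) in KLA.

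Over all 6 monomers of C57BL/6, 44 of the 78 loci with AP-1 had a peak in both treatments (56.4%, beside 49.0% of all AP-1 loci), 14 in Veh alone (17.9% beside 12.9%) and 20 in KLA alone (25.6% beside 38.0%). At Irf8 none of 8 such loci was bound in KLA alone, and 2 were bound in Veh alone. At Spi1, 6 of 16 were bound in KLA alone and 1 in Veh alone.

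C57BL/6 and BALB/cJ were compared to ask how binding at these genes differs between strains whose genomes differ in sequence. In KLA, ATF3 peaks at the 7 genes were mostly shared. Of 56 C57BL/6 peaks, 5 had no BALB/cJ peak (8.93%, 95% Wilson interval 3.87 to 19.3), beside 23.5% of the whole list, and of 61 BALB/cJ peaks 10 had no C57BL/6 peak, beside 23.7%. For JunD the counts were 12 of 53, beside 26%, and 15 of 56, beside 30.8%. For Jun they were 17 of 29, beside 53.5%, and 5 of 17, beside 28.3%. Fos had 3 of 37 unshared from C57BL/6, beside 10.6%, and 33 of 67 from BALB/cJ, beside 46.1%. JunB had 2 of 21, beside 20.8%, and 16 of 35, beside 51.1%.

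In Veh, 18 of 49 ATF3 peaks of C57BL/6 had no BALB/cJ peak, beside 37%, and 5 of 36 of BALB/cJ had no C57BL/6 peak, beside 25.2%. For Jun these were 14 of 29, beside 51.4%, and 9 of 24, beside 31.1%. For JunD they were 7 of 36, beside 24.3%, and 24 of 53, beside 48.1%. In the C57BL/6 Veh lists the median of unshared peaks was the top 74.8% for ATF3, 59.8% for Jun and 87.0% for JunD, against 35.2%, 26.8% and 33.5% for shared ones. In the BALB/cJ Veh lists it was 74.8%, 71.1% and 79.2%, against 45.7%, 37.5% and 23.5%. Some unshared peaks were strong, such as Jun of C57BL/6 at Runx1 +213.5 kb (top 10.8%) and ATF3 of C57BL/6 at Irf8 +7.7 kb (top 15.3%). The strains differed at named loci in places. At Runx1 +150.3 kb Jun in KLA was in the top 17.4% in C57BL/6 and had no peak in BALB/cJ. At Cebpa, Jun had 4 KLA peaks in C57BL/6 and 0 in BALB/cJ. List lengths differ between the strains, from 17480 and 11317 peaks for Jun in KLA to 24365 and 40459 for Fos.

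PPARγ KO was compared with wild type in Veh to ask how far ATF3, Jun and JunD depend on PPARγ at these genes. Of the wild-type peaks, 17 of 29 were lost for Jun (58.6%, 95% Wilson interval 40.7 to 74.5), beside 78.2% of the whole list, 13 of 49 for ATF3, beside 21.8%, and 14 of 36 for JunD, beside 46.5%. In the knockout lists, 4 of 16 Jun peaks were gained, beside 21%, 15 of 51 for ATF3, beside 36.1%, and 21 of 43 for JunD, beside 45.7%. The knockout Jun list holds 4290 peaks against 15548 in wild type. With both Jun lists held to equal length, 3 of 10 wild-type peaks were lost (30.0%) and 9 of 16 knockout peaks gained (56.2%). The whole-list shares above are of uncut lists, so they are no background for the shares at equal length.

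Wild-type Jun peaks at these genes overlapped a PPARγ peak in 24 of 29 cases. Of those 24, 12 were lost, beside 71.4% of PPARγ-bound Jun peaks in the whole list, and of the 5 without PPARγ all were lost, beside 91.2%. For ATF3, 6 of 33 with PPARγ and 7 of 16 without were lost, beside 14.9% and 32.4%. For JunD the counts were 10 of 31 and 4 of 5, beside 38.7% and 64%. The Jun peaks at Runx1 +205.2 kb, Runx1 +150.3 kb, Spi1 -25.4 kb and Spi1 +0.6 kb remained in the knockout, in the top 11.2%, 19.9%, 17.4% and 22.8% of its list. At Irf8 +4.9 kb and Irf8 +27.1 kb the wild-type Jun peaks, in the top 53.0% and 23.6%, were not called in the knockout. A Jun peak at Irf8 -16.3 kb was called in the knockout (rank 1848 of 4290, top 43.1%) and not in wild type.

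**Figure D4:**
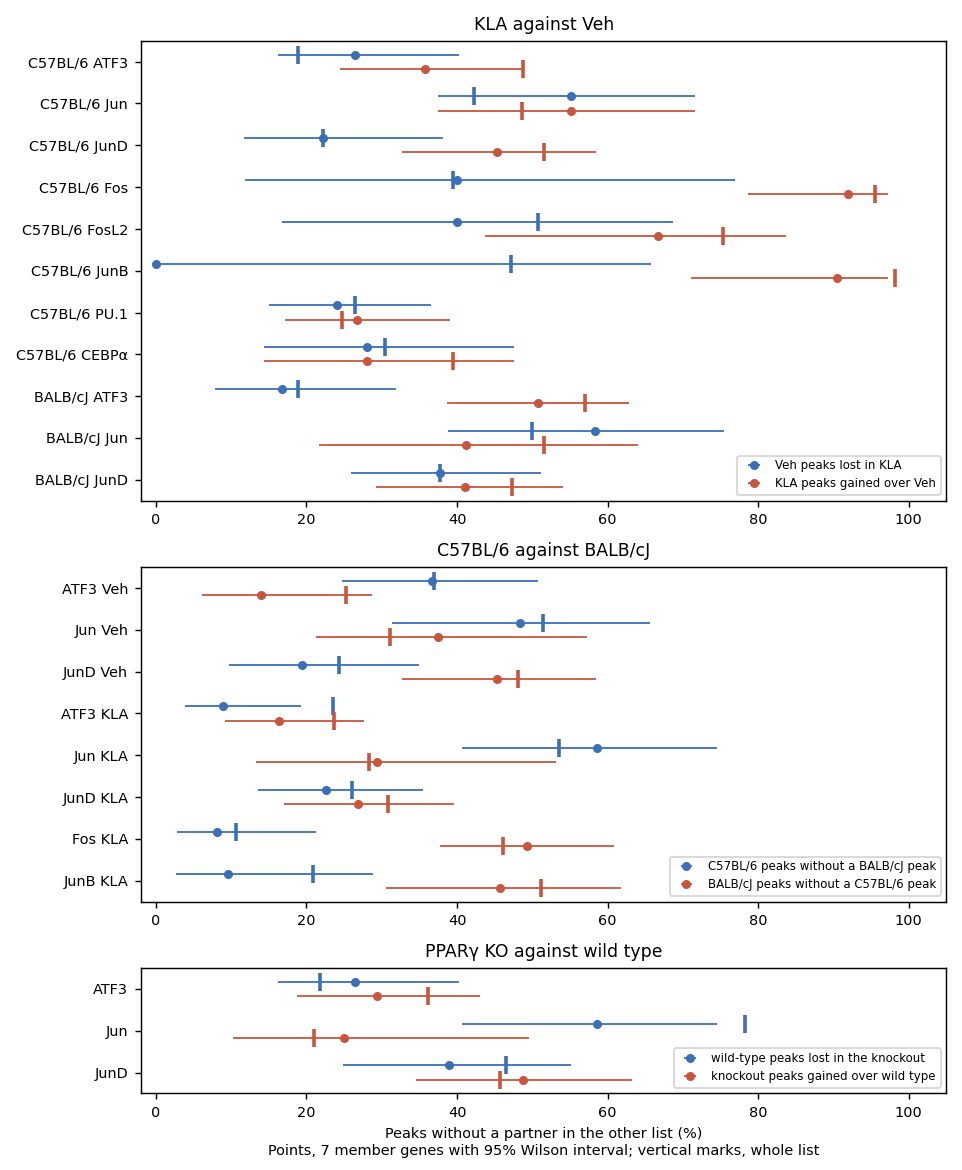
Percent of peaks at the 7 genes with no overlapping peak in the other list (points, with 95% Wilson intervals over peaks), beside the same percent over the whole list (vertical marks), for KLA against Veh, C57BL/6 against BALB/cJ, and PPARγ KO against wild type. Most marks lie inside the intervals, and those of ATF3 in KLA between strains (8.93% beside 23.5%), JunB gained in KLA (90.5% beside 98.2%) and Jun lost in the knockout (58.6% beside 78.2%) lie outside, with that of ATF3 gained in KLA of C57BL/6 (35.7% beside 48.8%) at the edge.

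In the central 200 bases of the 144 loci the TRE was found at 23 (16.0%, beside 18.8% of the 92912 loci whose window was read) and the CRE at 1 (0.694% beside 1.06%). The PU.1 core was at 26 (18.1% beside 23.2%), the C/EBP site at 22 (15.3% beside 14.5%), the Runx core at 11 (7.64% beside 6.42%) and the ATF:C/EBP composite at 3 (2.08% beside 1.85%). The κB site was at 3 (2.08% beside 5.02%). The direct repeat core was at 18 (12.5% beside 5.96%), of which 7 were at Spi1, 4 at Irf8, 3 at Cebpb, 2 at Cebpd, 1 each at Cebpa and Maf, and 0 at the 58 Runx1 loci. In the central 100 bases it was at 6 of 144 (4.17% beside 2.98%), so the difference from all loci was smaller near the centres. Motif matches can overlap each other, and a match does not show that a factor binds there.

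Of 20 other lineage factor genes, chosen as a list beside the 7, all 20 had a peak within 20 kb in at least 1 list. They held 3 to 60 loci with a median of 10.5, compared with 6 to 58 and a median of 15 at the 7 genes. PU.1 was present at 20 of them, PPARγ at 18, CEBPα at 16 and all 6 AP-1 monomers at 15, compared with 7, 7, 7 and 5 of the 7. Such peaks are common. In the Veh lists of C57BL/6 alone, PU.1 was at 20 of the 20, PPARγ at 18 and CEBPα at 14. The shares of 21951 protein-coding genes in these lists were 65.8%, 62.1% and 37.3%. The share of all genes with all 6 monomers is not given here. Zeb2 had 60 loci and Mitf 52. Ets2, an ETS factor gene, had its strongest peak in the top 0.595% for CEBPα in KLA and Mitf in the top 0.732% for Fos in KLA of BALB/cJ. Myb, a gene of progenitors, had 5 loci and no peak stronger than the top 51.0%.

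Genes among the 2 most like each of the 7 by the rank of their strongest peak over 28 lists (Pearson's r, among 11934 genes with a peak in at least 10 lists) were Bin1 (0.90) and Hpcal1 (0.90) for Spi1 and Mmp27 (0.92) and Mmp8 (0.92) for Cebpa. They were Rrp12 (0.86) and Lbhd2 (0.85) for Cebpb, Pick1 (0.96) for Cebpd, and Tle3 (0.93) and Pxk (0.92) for Irf8. For Runx1 they were Kif13b (0.92) and Kdm5a (0.90) and for Maf Snx2 (0.82) and Tsg101 (0.82). Lists share factors, strains and lengths, so these values describe the pattern and carry no test.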

How the data were processed

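ChIP-seq peak lists of 30 conditions were analysed. Per the study's methods, Bowtie2 aligned the reads (BALB/cJ reads to a genome made for that strain, whose positions were then moved to mm10), HOMER found peaks, and replicates were filtered at an IDR of 0.05. The versions of Bowtie2 and HOMER are not given in the sources used here. The deposited lists give a count per peak, not scaled to library size, and a score, the scaled IDR made by the authors, which is 1000 for 59.9% of peaks. How the counts of replicates were combined is not given in the sources used here.

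Peaks were ranked by count within each list and merged into loci, and genes and start sites were taken from GENCODE. Motifs were searched as exact letters on both strands in the central 200 bp. Python 3.11.15, numpy 2.4.6, pandas 2.3.3, scipy 1.17.1, pysam 0.24.0 and matplotlib 3.10.9 were used. Overlaps and ranks were tested on simulated data. Each pair of lists was compared by the share of peaks without an overlapping peak, set beside the same share of the whole list, with no test. KLA was compared with Veh only for factors with at least 100 peaks in both lists, which leaves out Fos and JunB of BALB/cJ. Loci named were drawn, per gene, from the 3 with peaks in the most lists, those within 1 kb of a start site of the gene and those with a PPARγ peak. Not every locus that met this rule is named, such as Runx1 +95.0 kb, with peaks in 23 lists. The genes, lists and rules were chosen with earlier results of these data known. The alternatives were a window of 5 kb or 50 kb around the gene, matching of peak centres within 100 bp, use of the strongest 50% of peaks, lists cut to the same length, peaks touching the window, rank by score, and motifs in the central 100 bp. RefSeq promoter sequences matched Cebpa, Cebpb, Irf8 and Runx1 and are not printed. Of the 2 genes most like each gene in pattern, 1 is not reported here.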

Additional observations from a re-analysis of the deposited data

Results flagged for a closer look

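At 3 of 21 combinations of gene and monomer (ATF3, Jun and JunD at the 7 genes) the number of peaks moved in opposite directions with KLA in the C57BL/6 and BALB/cJ lists, by at least 2 peaks in each. Jun at Irf8 had 2 peaks in Veh and 5 in KLA in C57BL/6, and 5 and 2 in BALB/cJ, so that the change in BALB/cJ minus that in C57BL/6 was -6. Jun at Cebpa had 1 and 4 peaks in C57BL/6 and 2 and 0 in BALB/cJ, a difference of -5. JunD at Maf had 0 and 2 peaks in C57BL/6 and 3 and 0 in BALB/cJ, also a difference of -5. The JunD peaks at Maf were all weak, at the top 62.5% or below. Jun at Cebpa was in the top 71.1% and 74.9% in Veh of BALB/cJ and in 36.0% to 58.5% in KLA of C57BL/6. The Jun peaks at Irf8 ranged from the top 14.5% to 78.4%. The share of all genes that meet this rule is not given here, so the number flagged has no background. Each number comes from 1 list, and the differences were not tested.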

How the results depend on the processing

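No paired analysis was possible because the labels carry no replicate numbers and each condition has 1 list, and for the same reason no replicate could be left out. Of 314 values recomputed under an alternative, 262 stayed within 1.5 times (counts) or within the 95% Wilson interval (shares) of the reported value. The 144 loci became 219 with windows of 50 kb and 80 with the strongest 50% of each list. The 58 combinations of gene and list with a peak in the top 10% became 136 when peaks were ranked by score, where peaks at 1000 tie. With lists of equal length, Veh peaks lost in KLA went from 31.8% to 38.8% and KLA peaks gained from 48.3% to 33.9% over all pairs of lists, and BALB/cJ peaks without a C57BL/6 peak from 33.5% to 24.1%. With the strongest 50% of each list, C57BL/6 peaks without a BALB/cJ peak went from 25.2% to 17.9%, wild-type peaks lost in the knockout from 38.6% to 27.4% and knockout peaks gained from 36.4% to 22.4%. Shares over whole lists under these settings are not given here, so the shifts in shares have no background. The shifts cannot be read as specific to the genes studied here. The causes of the changes above were not tested. List length limits these comparisons: weak Veh lists (463 peaks for JunB and 1804 for Fos in C57BL/6) cannot show whether a site was free of the monomer.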
